A study of Mus musculus with 143 samples.

Results

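The circadian clock genes described here were 10 of the 53468 genes in the deposited count table, namely Arntl, Clock, Per1, Per2, Per3, Cry1, Nr1d1, Nr1d2, Dbp and Tef, chosen by name and found through their Ensembl identifiers. They were measured in adipose stem cells (ASC), the fibroblast-like cells of white adipose tissue that include the precursors of adipocytes. The study sorted these cells from a visceral depot, the perigonadal fat (pgWAT), and a subcutaneous one, the inguinal fat (iWAT), of female and male mice and asked how they differ between the sexes. The cells were free of the leukocyte marker CD45 and the endothelial marker CD31, carried CD34, and were split by the surface protein DPP4 into a DPP4+ gate (called ASC2 by the study) and a DPP4- gate (ASC1). Depot, gate and sex gave 8 groups of 7 mice each, except the male iWAT DPP4- group, which held 8, and the 57 samples came from 16 mice (8 of each sex).

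All mice were C57BL6/J animals of 18 weeks from Charles River, kept under 12 h of light and 12 h of dark with free access to chow, and the labels name no genetic change or drug for any group. They were fasted for 4 h before termination, and the tissue was dissociated with enzymes. The study describes a dissociation kit with added collagenase and, for in vitro work, a mix of collagenases and dispase. It does not clearly state which served these samples. Sorting collected 5000 cells per sample, and the RNA of about 300 cells entered Smart-seq2, a full-length cDNA method, so each library stood for few cells. The time of day of termination was not given in the sources used here. Time of day therefore cannot be set against sex or mouse here, and its part in their differences was not tested. For the bulk samples of sorted cells, the study reports that collection and analysis followed a randomized order, without times for single mice. The sex tests treat both gates of an animal as samples in their own right, and in bulk samples fewer cells of a type cannot be told apart from less RNA per cell.

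The mammalian clock is a feedback loop of transcription. The activators ARNTL (also called BMAL1) and CLOCK bind E-box sequences and switch on the Per and Cry genes, whose proteins return to the nucleus and block the activators. In a second loop the same activators switch on Nr1d1 and Nr1d2, which encode the heme-binding repressors REV-ERB alpha and beta that hold Arntl down. The activators also drive Dbp and Tef, members of the PAR bZIP family whose proteins bind D-box sequences in many output genes. In adipose tissue the clock is known for daily rhythms in lipid handling and hormone secretion.

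Promoter bases of 9 of the 10 members were matched in RefSeq (GRCm38.p6), in 14 windows of 250 bases before a transcription start. Of all 32851 such windows, 6.02% held the E-box CACGTG, 3.85% the related E'-box CACGTT, 0.819% the D-box TTATGTAA and 0.694% the D-box TTATGCAA, counting both strands. The letters TTACGTAA (0.113% of windows) and TAGGTCA (2.23%, a half-site of the REV-ERB and ROR receptors) were found in none of the members' windows. The windows printed are those with a match outside exons, beside Dbp, whose level moved with Nr1d1 from mouse to mouse. Bases that GENCODE M21 places in exons were left off, and capitals mark the motifs.
Nr1d1: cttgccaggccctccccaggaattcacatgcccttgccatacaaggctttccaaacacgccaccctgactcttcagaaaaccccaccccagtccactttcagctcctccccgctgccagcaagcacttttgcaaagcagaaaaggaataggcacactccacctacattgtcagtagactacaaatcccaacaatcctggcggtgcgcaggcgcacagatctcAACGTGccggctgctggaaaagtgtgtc
Dbp: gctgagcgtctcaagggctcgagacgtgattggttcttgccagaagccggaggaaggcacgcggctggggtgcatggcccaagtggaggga
Per3: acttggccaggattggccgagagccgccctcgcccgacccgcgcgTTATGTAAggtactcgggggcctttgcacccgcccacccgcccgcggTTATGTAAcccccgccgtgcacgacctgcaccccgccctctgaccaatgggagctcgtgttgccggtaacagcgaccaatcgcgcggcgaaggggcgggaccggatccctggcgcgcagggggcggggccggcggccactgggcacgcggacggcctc
Per1: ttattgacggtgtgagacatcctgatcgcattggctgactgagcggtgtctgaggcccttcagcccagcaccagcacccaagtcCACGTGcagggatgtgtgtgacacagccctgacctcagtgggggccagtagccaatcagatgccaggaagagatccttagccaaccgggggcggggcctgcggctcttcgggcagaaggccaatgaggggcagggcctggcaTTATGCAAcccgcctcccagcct
Cry1: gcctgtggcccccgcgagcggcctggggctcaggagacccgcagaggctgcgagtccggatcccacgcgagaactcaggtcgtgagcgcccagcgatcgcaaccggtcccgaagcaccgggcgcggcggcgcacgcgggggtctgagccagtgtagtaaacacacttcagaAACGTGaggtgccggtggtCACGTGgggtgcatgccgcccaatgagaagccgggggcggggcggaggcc
Tef: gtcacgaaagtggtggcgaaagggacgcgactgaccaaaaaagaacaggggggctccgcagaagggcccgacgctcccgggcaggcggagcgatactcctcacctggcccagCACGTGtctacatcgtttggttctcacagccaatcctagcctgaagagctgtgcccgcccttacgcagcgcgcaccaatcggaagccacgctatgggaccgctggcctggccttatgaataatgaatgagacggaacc
These sequences lie, in the same order, at chr11:98775378-98775627 (minus strand), chr7:45704997-45705087 (plus), chr4:151044666-151044915 (minus), chr11:69098699-69098947 (plus), chr10:85185065-85185304 (minus) and chr15:81811164-81811413 (plus). The first 2 belong to the repressor Nr1d1 and the output gene Dbp. The match in Nr1d1 is an E'-box on the strand opposite to the printed one, 28 bases before the RefSeq start, and the printed bases of Dbp held none of the letters searched. Per3 held its D-box 205 and again 158 bases before the start. Per1 held an E-box at 166 bases and a D-box at 24. Cry1 held an E-box at 60 bases and an E'-box on the strand opposite to the printed one at 79, and Tef held an E-box at 138. A further E-box of Tef, 127 bases before another RefSeq start, lay in a window wholly within exons, which is not printed. A match is a description of these letters only.

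The sort and the labels could be checked on marker genes. Dpp4 lay between 264 and 785 CPM (a gene's counts scaled to the same total in every sample) in DPP4+ samples and between 1.07 and 44.1 CPM in DPP4- samples, and the fibroblast marker Pdgfra was found in every group. Xist was at least 155 CPM in every female sample and at most 6.78 CPM in every male sample. The adipocyte marker Adipoq reached at most 3.08 CPM, and the sum of Adipoq, Lep, Plin1 and Cidec at most 21.2, in female iWAT DPP4- samples. Summed markers reached at most 388 CPM for leukocytes, 518 for endothelium, 166 for mesothelium and 2142 for mural cells. Summed markers of mammary luminal epithelium (Krt8, Krt18, Krt19, Epcam, Cldn4 and Wfdc18) ran from 226 to 15296 CPM in female iWAT DPP4- samples, and from 0.673 to 6.70 CPM in the male ones. That group of females was also the shallowest, with 545885 to 1654046 counts per sample, against 931441 to 4029915 in the other groups.

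Every member had counts, but on very different scales. Per kilobase of exon, the mean level over the 57 samples was 96.6 CPM for Nr1d1, 19.0 for Per1, 8.39 for Nr1d2, 7.85 for Dbp and 3.27 for Tef. Arntl followed with 2.81, Per2 with 2.74, Cry1 with 2.08, Per3 with 1.89 and Clock with 1.86 CPM per kilobase. Nr1d1 and Per1 thus stood apart from the rest, while the lowest 5 lay within a narrow range. The highest genes had the smallest spread. After the group means were removed, the SD between mice on the log2 CPM scale was 0.38 for Nr1d1, 0.47 for Per1 and between 0.70 and 1.22 for the other 8, against a median of 0.71 over all genes. Between libraries of the same sample it was 0.30 for Nr1d1, 0.50 for Per1 and 0.97 to 1.35 for the others (all genes 0.96). For 8 of the 10 members this was above the SD between mice, as it was for the median of all genes. Libraries were taken singly for the first SD and summed per sample for the SD between mice. The SDs are thus at unlike depth and do not rank these sources of spread.

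Neither activator was called in any of the comparisons. Arntl (ENSMUSG00000055116, chromosome 7, 113207465 to 113314126, plus strand) ran from 0.807 to 47.6 CPM over all samples, with group medians between 15.5 and 29.8 CPM. Clock (ENSMUSG00000029238, chromosome 5, 76209868 to 76304792, minus strand) ran from 4.80 to 86.1 CPM, with group medians between 14.3 and 34.4. The samples of a group overlapped those of other groups for both genes.

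The repressor genes of the Per and Cry families were measured at unequal depth. Per1 (ENSMUSG00000020893, chromosome 11, 69095217 to 69109960, plus strand) lay between 42.1 and 194 CPM. Per2 (ENSMUSG00000055866, chromosome 1, 91415982 to 91459324, minus strand) lay between 0 and 117 CPM, and Per3 (ENSMUSG00000028957, chromosome 4, 151003652 to 151044665, minus strand) between 0 and 40.8 CPM. Cry1 (ENSMUSG00000020038, chromosome 10, 85131700 to 85185064, minus strand) was the least certain of all: its 902 counts were spread over 57 samples, 4 of which had none and 6 of which had under 3.

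Of the nuclear receptor genes, Nr1d1 (ENSMUSG00000020889, chromosome 11, 98767932 to 98775333, minus strand) had 37157 counts, the most of the 10 members, and 105 to 543 CPM, and Nr1d2 (ENSMUSG00000021775, chromosome 14, 18204054 to 18239127, minus strand) 5.50 to 84.9 CPM. Of the outputs, Dbp (ENSMUSG00000059824, chromosome 7, 45705088 to 45710203, plus strand) spanned 0.495 to 67.2 CPM and Tef (ENSMUSG00000022389, chromosome 15, 81802421 to 81826863, plus strand) 2.40 to 67.8 CPM. Counting by strand was not stated in the sources used here, and reads from overlapping genes on the other strand cannot then be told apart. Sphk2 shares 539 bases (18.0%) of the Dbp exons and Thra 263 bases (8.55%) of the Nr1d1 exons.

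**Figure D1:**
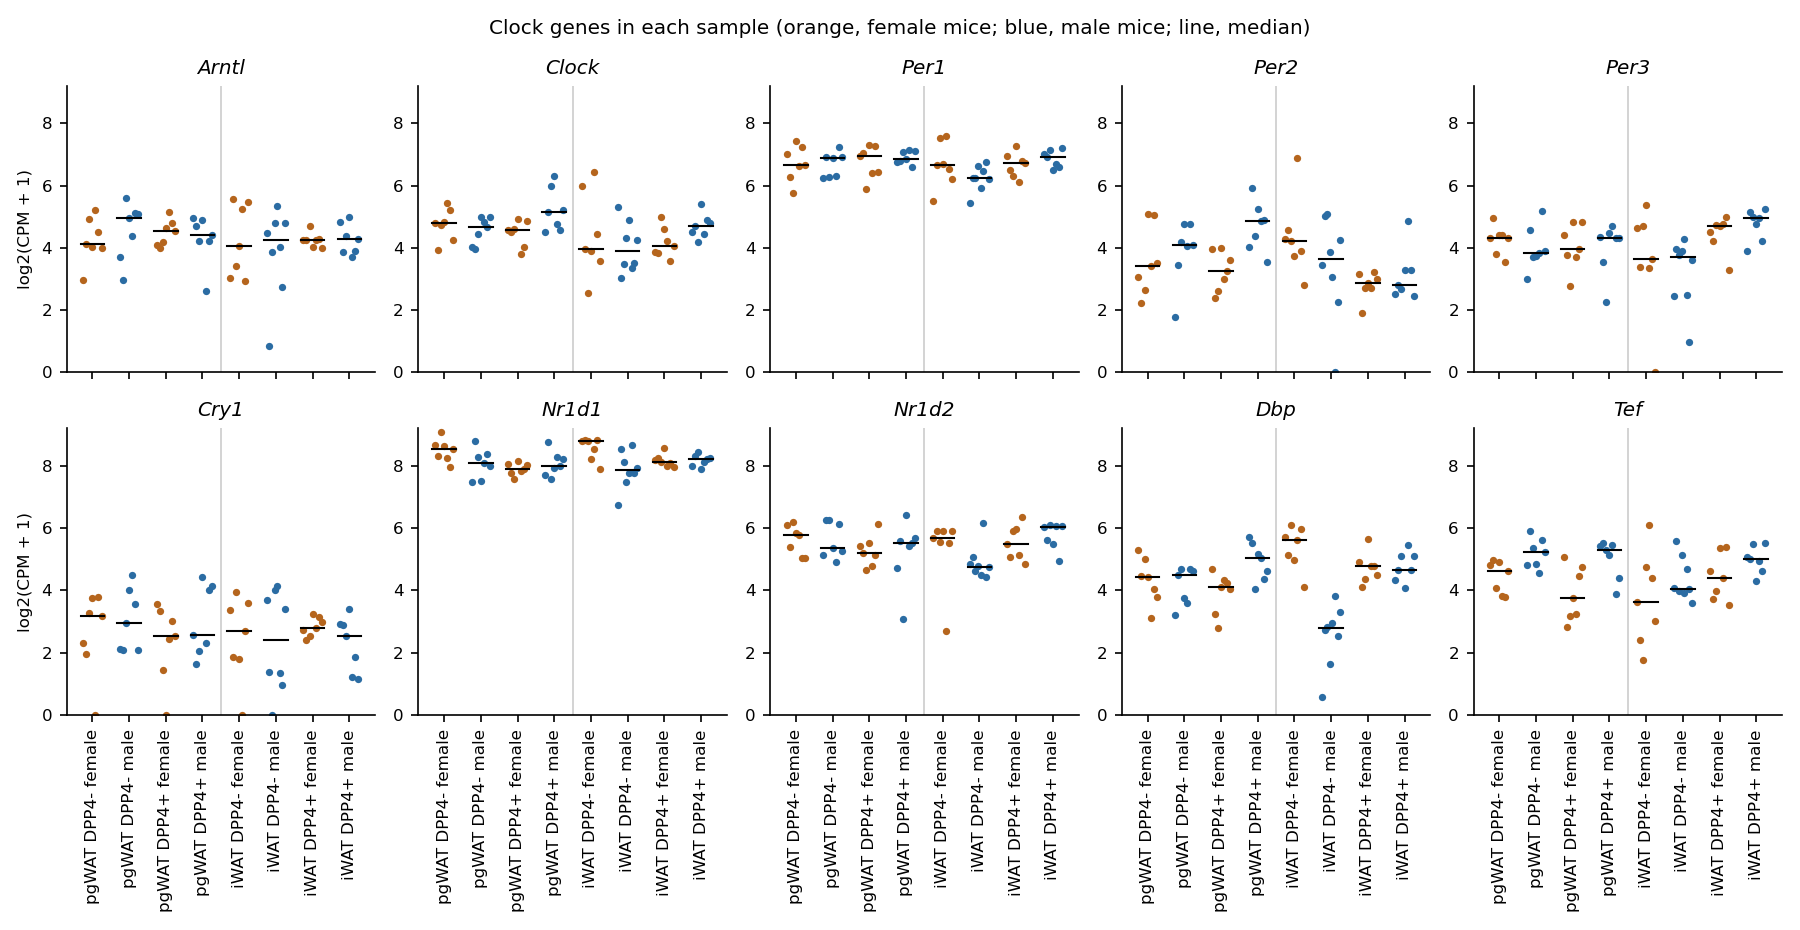
Level of each clock gene in each of the 57 samples, as log2(CPM + 1), for the 8 groups of depot, gate and sex (orange, female mice; blue, male mice; black line, group median). Dbp in male iWAT DPP4- cells has the lowest median (5.85 CPM), with points from 0.495 to 13.2 CPM that overlap the lowest ones of 3 pgWAT groups, and the points of Nr1d1 lie highest of the 10 panels.

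Dbp showed the largest group difference among the 10 members, in inguinal cells without DPP4. In female iWAT DPP4- samples Dbp measured 16.1 CPM at the lowest, 47.6 at the median and 67.2 at the highest, with a mean of 44.1 ± 18.2 (SD, n = 7). In the male samples of that gate it measured 0.495, 5.85 and 13.2 CPM, with a mean of 5.98 ± 3.92 (SD, n = 8). Every male sample lay below every female sample. Dbp was the only one of the 10 members whose ranges did not overlap between the sexes there, as was the case for 1.83% of the genes tested. The male level rested on 94 counts over 8 samples, 1 to 26 in each.

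In the DPP4+ gate of the same depot the sexes overlapped. Female samples measured 16.4, 26.4 and 49.6 CPM at the lowest, median and highest, and male samples 15.7, 23.9 and 43.0 CPM. In pgWAT the DPP4- samples overlapped too, with 7.62, 20.5 and 38.2 CPM in females and 8.23, 21.4 and 24.8 in males. The male pgWAT DPP4+ samples measured 15.6, 31.6 and 51.9 CPM against 5.91, 16.4 and 24.5 in females, again with an overlap. No member had separate ranges in these 3 comparisons of the sexes, where 2.29%, 3.73% and 1.95% of the genes tested did.

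The edgeR quasi-likelihood test, with p-values adjusted by the Benjamini-Hochberg method over all genes tested, was made for the sexes in each gate alone. In iWAT DPP4- samples Dbp was lower in males, with -2.53 ± 0.48 on the log2 scale (SE, adjusted p = 0.00262), where 3.66% of genes were called at an adjusted p under 0.05. The DPP4+ samples gave -0.01 ± 0.26 (adjusted p = 0.993, 8.27% called). The difference between these sex effects was tested directly, in a comparison added after the data had been seen. The sex effect was 2.50 ± 0.54 higher on the log2 scale in DPP4+ than in DPP4- samples (adjusted p = 0.0069), the only call among the 10 members, with 2.8% of 11072 genes called. With the mouse as a replicate block the value was 2.50 ± 0.50 (adjusted p = 0.00251), and it was called without each of the 16 mice in turn (2.31 to 2.60). Taking only the deepest library of each sample gave 2.46 ± 0.92, no longer called (adjusted p = 0.255).

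The gates of the same mouse told this in single animals. Among the 7 males with both gates of iWAT, Dbp was higher in DPP4+ cells in 7. The most unequal was mouse 1, with 0.495 CPM in DPP4- and 19.0 CPM in DPP4+ cells. Of 6 females with both gates, 5 had the higher value in DPP4- cells, for example mouse 23 with 61.7 against 26.4 CPM. The edgeR test of the gates gave 1.99 ± 0.42 in male iWAT samples (adjusted p = 0.00145, 14.2% called) and -0.53 ± 0.33 in female ones (adjusted p = 0.398, 9.94% called). The same sex by gate test in pgWAT gave 1.16 ± 0.49 for Dbp (p = 0.0232, adjusted p = 0.380). No member was called there, where 1.13% of genes were called, and 3 had an unadjusted p under 0.05 (9.58% of all genes).

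Marker sums of other cell types moved with the sexes in iWAT DPP4- samples, and their part in the Dbp difference was not tested. Beside the luminal sum, the mural sum had a median of 148 CPM in females (69.6 to 1095) and 32.8 in males (5.45 to 101). The leukocyte sum had a median of 33.2 CPM (20.8 to 388) against 12.1 (4.65 to 149). The ASC marker sum was lower in females, at 20177 CPM (3521 to 22101) against 24992 (21108 to 32445). The 7 female iWAT DPP4- samples, ordered by luminal sum from 226 to 15296 CPM, were those of mice 23, 17, 19, 20, 24, 21 and 22. In that order they had 61.7, 51.9, 33.9, 67.2, 16.1, 30.2 and 47.6 CPM of Dbp. Without mouse 22 the sex by gate value was 2.49 (adjusted p = 0.00498). Sphk2, which overlaps Dbp, measured 1.81, 27.5 and 45.3 CPM at the lowest, median and highest in female iWAT DPP4- samples, and 9.66, 23.6 and 40.4 in male ones. Its sex effect in iWAT was 0.13 ± 0.27, and its sex by gate value was -0.28 ± 0.55.

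**Figure D2:**
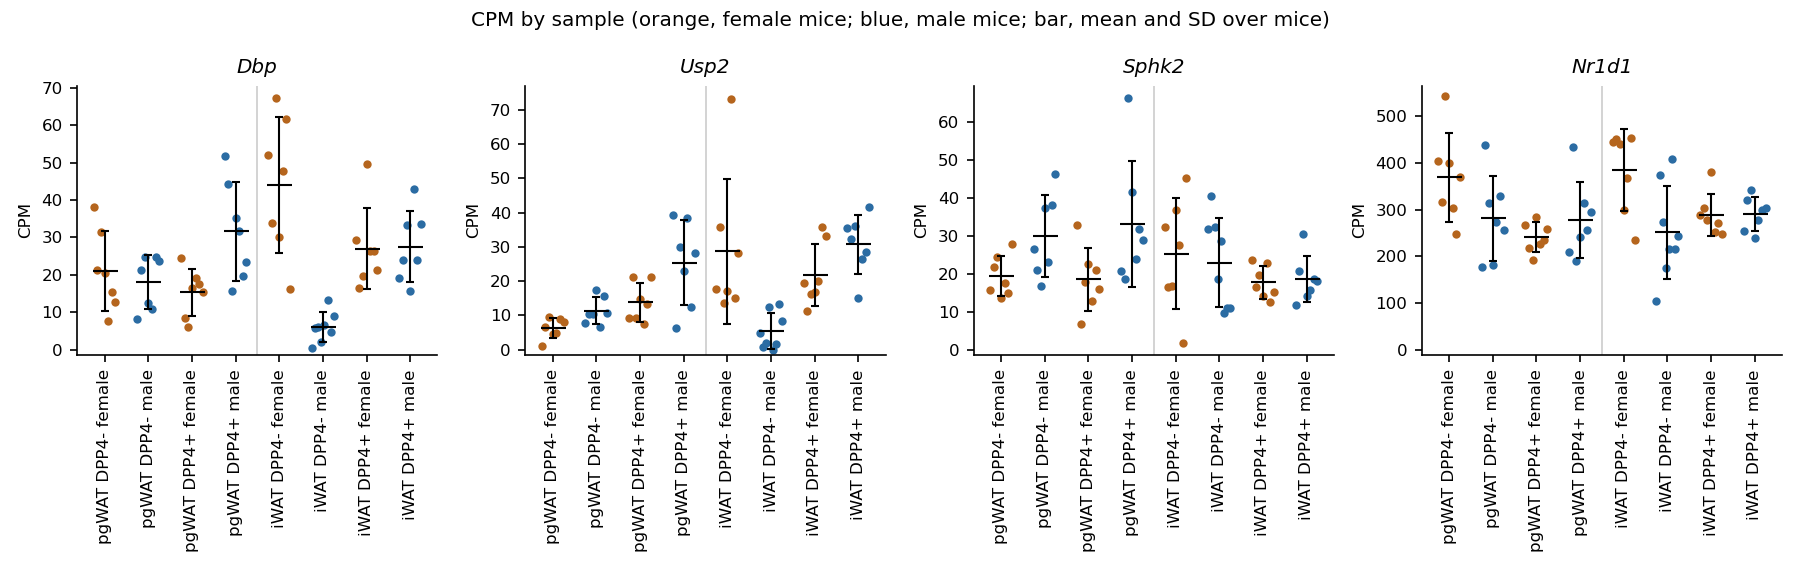
CPM of Dbp, of Usp2, a further clock-driven gene, of Sphk2, which overlaps Dbp on the other strand, and of Nr1d1 in each sample (orange, female; blue, male; bar, mean and SD over mice). In iWAT DPP4- cells the male points of Dbp (at most 13.2 CPM) and of Usp2 (at most 13.4 CPM) lie under the female points (at least 16.1 and 13.6 CPM), and those of Sphk2 and Nr1d1 overlap.

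Usp2, which encodes a deubiquitinase and is a known clock-driven gene of the wider pathway list, was likewise low in male iWAT DPP4- samples. In iWAT DPP4- samples it measured 13.6, 17.7 and 73.3 CPM at the lowest, median and highest in females and 0, 3.48 and 13.4 CPM in males. The DPP4+ samples measured 11.1, 19.5 and 35.7 CPM in females and 14.9, 32.3 and 41.7 in males. The ranges were thus apart in the first gate and overlapped in the second. Among mice with both gates of iWAT, Usp2 was higher in DPP4+ cells in 7 of 7 males, as Dbp was. It was also higher there in 5 of 6 females, whereas Dbp was lower in DPP4+ cells in 5 of 6. The sex by gate value in iWAT was 2.32 ± 0.64 (adjusted p = 0.0392). It was lost with the mouse as a replicate block (1.94 ± 0.64, adjusted p = 0.125), without mouse 22 (1.97, adjusted p = 0.0734) and without any of 11 other mice (1, 2, 3, 6, 8, 17, 18, 19, 20, 21 and 24, with values between 2.15 and 2.44).

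Over both gates of iWAT the sex test called 1 of 10 members, Dbp, at -1.23 ± 0.35 (adjusted p = 0.0364), where 4.38% of genes were called. The other 9 members lay between -0.14 and 0.54, with SEs of 0.16 to 0.46. In limma, with mouse as random effect (a replicate block), Dbp was at -0.73 ± 0.33 (adjusted p = 0.219). The call was also lost without any of 10 mice (1, 2, 3, 4, 5, 7, 8, 17, 20 and 23), with values of -1.39 to -1.05 over all 16 omissions. The difference of the sex effect between the depots, iWAT minus pgWAT, was -1.62 ± 0.45 for Dbp (adjusted p = 0.0379), 1 of 10 members against 2.18% of genes. It was -1.79 ± 0.46 with the replicate block (adjusted p = 0.0243). This call was lost without any of 10 mice too (1, 2, 3, 4, 5, 7, 20, 21, 22 and 23), with values of -1.80 to -1.44.

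In pgWAT the member called between the sexes was Tef. Female pgWAT DPP4- samples measured 12.8, 23.7 and 30.6 CPM at the lowest, median and highest, and male ones 22.5, 36.5 and 59.2. In DPP4+ samples females measured 6.01, 12.5 and 32.9 CPM and males 13.6, 38.1 and 44.9. The ranges overlapped in both gates, with the male medians higher. Over both gates Tef was higher in males by a log2 fold change of 0.92 ± 0.24 (adjusted p = 0.00734), 1 of 10 members where 10.8% of genes were called. That share is close to the background. It was called without each of the 15 mice in turn (0.81 to 1.10), and 0.96 ± 0.24 with the mouse as a random effect (adjusted p = 0.00607). With the gates summed per mouse it was 0.88 ± 0.28, past the threshold no longer (adjusted p = 0.0568). The call was also lost with only the deepest library of each sample and in each gate tested alone. Over these 4 settings the values were 0.86 to 1.04 (adjusted p of 0.0558 to 0.160).

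Per2 had a value as large as that of Tef in pgWAT, but with a wider error, 0.92 ± 0.33 (p = 0.00872, adjusted p = 0.0709). Its male DPP4+ samples measured 10.7, 28.1 and 59.7 CPM against 4.21, 8.46 and 14.8 in females, which overlapped. In that gate alone the log2 fold change was 1.57 ± 0.37 (adjusted p = 0.0146, 4.2% called), and in DPP4- samples alone it was 0.28 ± 0.44 (adjusted p = 0.806, 9.33% called). The sex by gate value of Per2 in pgWAT was 1.27 ± 0.62 (p = 0.0474, adjusted p = 0.509), so the effects were not shown to differ. The other 8 members lay between -0.07 and 0.60.

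Between the gates, 1 of 10 members was called in iWAT and 0 of 10 in pgWAT, where 15.4% and 15.1% of genes were called. At an unadjusted p under 0.05 the counts were 3 and 1, against 26.0% and 25.1% of genes. The called member was Per2, lower in DPP4+ cells at -1.32 ± 0.44 (adjusted p = 0.0360). In female iWAT samples Per2 measured 6.03, 17.6 and 117 CPM at the lowest, median and highest in the DPP4- gate and 2.78, 6.31 and 8.27 in the DPP4+ gate. Males measured 0, 11.7 and 33.0 CPM and 4.50, 6.05 and 28.0 CPM. Every comparison overlapped, and the 117 CPM belonged to mouse 22, whose luminal markers were the highest and whose next neighbour was at 22.6 CPM.

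The Per2 value rested on the choice of samples. With the mouse as a replicate block it was -0.91 ± 0.48 (adjusted p = 0.285), and without mouse 22 it was -0.94 (adjusted p = 0.104). It was lost without 10 other mice as well (1, 2, 3, 8, 17, 18, 19, 20, 21 and 23). Per3, by contrast, was at 0.92 ± 0.34 in the unblocked test (adjusted p = 0.0605) and at 1.29 ± 0.33 with the replicate block (adjusted p = 0.00788), higher in DPP4+ cells in 7 of 7 males and 4 of 6 females. In iWAT DPP4- samples Per3 measured 0, 11.5 and 40.8 CPM in females and 0.957 to 18.6 in males, and in DPP4+ samples 8.71, 24.9 and 31.0 and 13.9, 30.3 and 36.8. In pgWAT the 10 members lay between -0.30 and 0.27, with Nr1d1 the lowest at -0.30 ± 0.14 (p = 0.0438, adjusted p = 0.182). Female pgWAT samples measured 247, 370 and 543 CPM of Nr1d1 at the lowest, median and highest in the DPP4- gate and 192, 235 and 285 in the DPP4+ gate. The value was lower in DPP4+ cells in 7 of 7 females and 2 of 6 males. Tested alone, the females gave -0.52 ± 0.17 for Nr1d1 (p = 0.00510, adjusted p = 0.0555) and the males -0.07 ± 0.21, with 0 of 10 members called in either sex, against 8.82% and 10.6% of genes.

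Between the depots, Dbp was the member called in females, at 1.04 ± 0.25 higher in iWAT (adjusted p = 0.00711), 1 of 10 where 6.12% of genes were called. It lost the call without mouse 20 or 23, and the 8 omissions gave 0.87 to 1.20. It was also lost with only the deepest library of each sample (1.00, adjusted p = 0.136), with the gates summed per mouse (0.93, adjusted p = 0.0551) and in DPP4- samples alone (1.10, adjusted p = 0.172). All 10 members had a log2 fold change above 0 in females, with a median of 0.21 beside 0.01 over all genes, but those not called lay between 0.01 and 0.31 with SEs of 0.14 to 0.43. In males 0 of 10 members were called, against 14.0% of genes, and Dbp was at -0.59 ± 0.28 (p = 0.0428, adjusted p = 0.180). The other 9 lay between -0.56 and 0.24. Scaled by library totals alone, the male value of Dbp was -0.85 and was called (adjusted p = 0.0296).

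**Figure D3:**
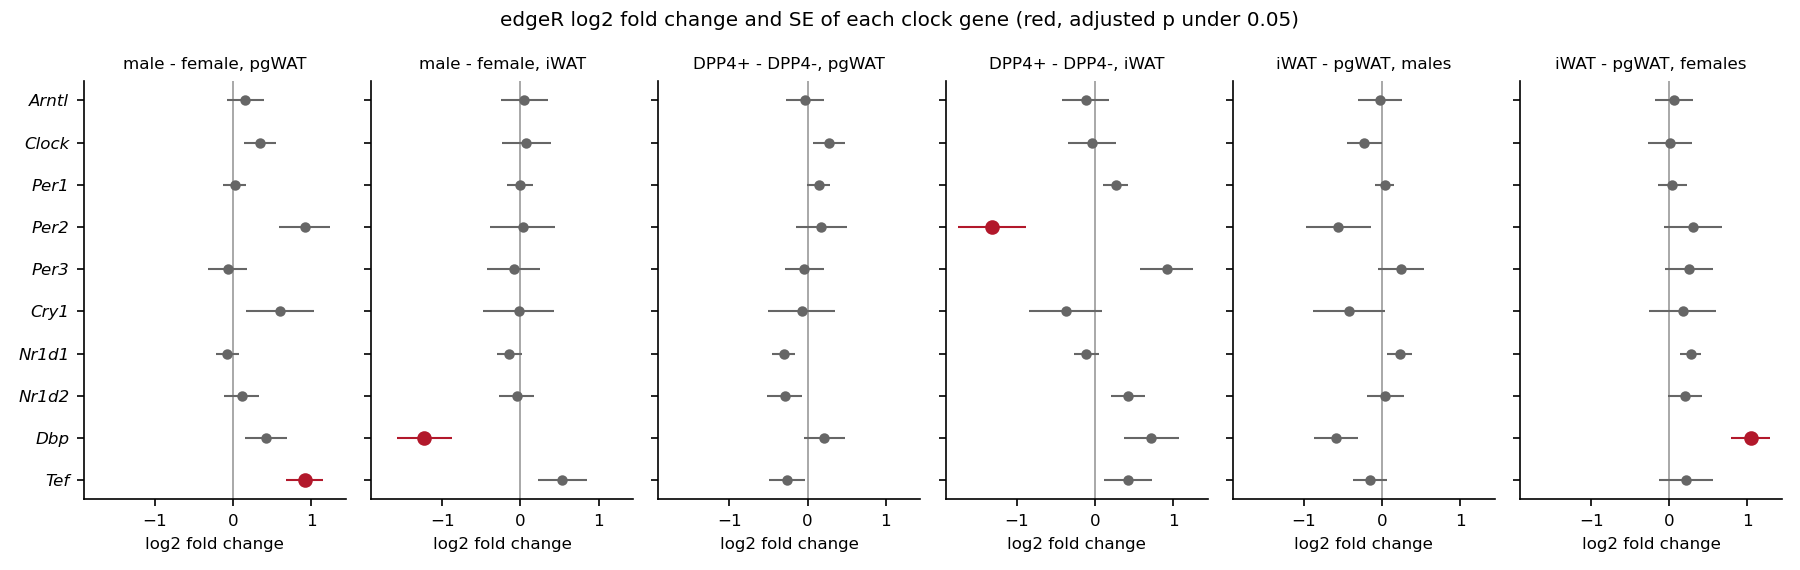
Log2 fold change of the 10 clock genes from edgeR in 6 comparisons, with bars of 1 SE (red, adjusted p under 0.05; grey, not called). The called points are Tef between the sexes in pgWAT (0.92), Dbp between the sexes in iWAT (-1.23), Per2 between the gates of iWAT (-1.32) and Dbp between the depots of females (1.04).

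The members also varied from mouse to mouse inside a group. For Nr1d1, 10 of the 16 mice had all their samples on one side of the group means (5 above and 5 below), and 6 had samples on both sides. For the other 9 members 2 to 7 of the 16 mice lay on one side. The extremes among males were chosen after their values were seen. Mouse 1, one of the lowest, measured 105, 255, 176 and 210 CPM (iWAT DPP4-, iWAT DPP4+, pgWAT DPP4- and pgWAT DPP4+), and mouse 4 measured 176, 239, 181 and 190. Mouse 3 measured 274, 343, 314 and 434 CPM in the same order, and mouse 2, which had no pgWAT DPP4+ sample, measured 375, 320 and 439. Averaged over its samples, the deviation from the group mean ran from -0.57 in mouse 1 to 0.51 in mouse 2 on the log2 scale.

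A test of mouse within group was made with the samples of a mouse as replicates, across depots and gates. It called Nr1d1 (F = 4.78, p = 2.15e-05, adjusted p = 0.00531), 1 of 10 members where 1.18% of 14805 genes were called. At an unadjusted p under 0.05 it held 5 of 10 members (Nr1d1, Per1, Per3, Tef and Arntl) against 9.33% of genes, and the median F was 1.86 for the members and 0.99 for all genes. The Nr1d1 call held without each of the 16 mice in turn (F of 4.00 to 5.43). In males alone F was 7.07 (adjusted p = 0.0179, 0.476% called), and in females alone 2.59 (adjusted p = 0.591, 0.39% called). Within pgWAT it was 3.99 (adjusted p = 0.0485, 1.95% called) and within iWAT 2.54 (adjusted p = 0.243, 3.0% called). Thra, which overlaps Nr1d1, had a p of 0.656. A stricter test, which asked whether the depots of a mouse share a deviation, called 0 of 10 members and 0.186% of genes. Unadjusted, 4 of 10 were under 0.05 against 4.07% of genes, with Per2 at 0.00467, Nr1d1 at 0.0142, Per1 at 0.0189 and Arntl at 0.0405.

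As a description, the deviation of Nr1d1 in pgWAT correlated with that in iWAT of the same mice at r = 0.82 in DPP4- samples (13 mice) and 0.73 in DPP4+ samples (12 mice). The median over the members was 0.34 and 0.44, and over all genes 0.06 and 0.07. Between the gates of a depot Nr1d1 reached 0.55 in iWAT and 0.48 in pgWAT (13 mice each). The members' medians were 0.20 and 0.01, beside 0.07 and 0.12 for all genes. Between the gates of iWAT Dbp and Per3 were both at 0.79, and Per1 was at 0.73 between those of pgWAT. Per2 went the other way between the gates of iWAT, at -0.83. Male mouse 6 had the highest Per2 of the male iWAT DPP4+ samples (28.0 CPM, the next at 8.75). It also had the male iWAT DPP4- sample at 0 CPM, and the correlation without this mouse was not computed.

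**Figure D4:**
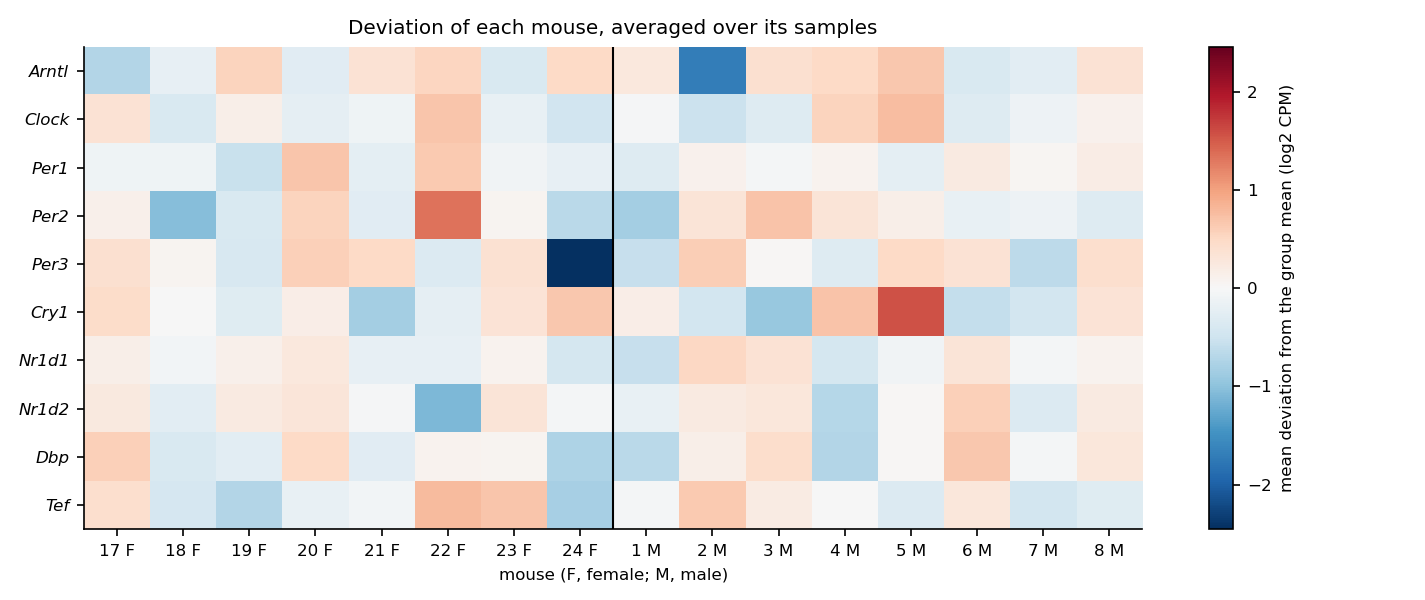
Mean deviation of each mouse from its group means, in log2 CPM, for the 10 clock genes (rows) in 8 female and 8 male mice (columns; red, above; blue, below). Mice 1, 4 and 24 are low in both Nr1d1 (-0.57, -0.44 and -0.44) and Dbp (-0.66, -0.73 and -0.76), and mice 3, 6 and 20 are high in both.

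Mice with more Nr1d1 also had more Dbp. Over the 16 mice, the averaged deviations of Dbp and Nr1d1 correlated with r = 0.83 (permutation p = 0.0002, adjusted p = 0.0018 over the 9 relations of Dbp to the other members) and rho = 0.82 (permutation p = 0.00032, adjusted p = 0.00288), both two-sided. Without mice 4 and 24, the farthest from the median of Dbp, r was 0.75. Both genes were counted in the same libraries, so their values share library and depth. The relation was 0.64 in pgWAT alone (15 mice, permutation p adjusted to 0.0272) and 0.78 in iWAT alone (16 mice, permutation p adjusted to 0.00882). With 8 mice each it was 0.88 in males (adjusted permutation p = 0.0289) and 0.78 in females (adjusted permutation p = 0.157). Leaving out the 2 farthest mice gave 0.55 and 0.56 there.

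Among the other members, Per3 passed the threshold with r = 0.64 (adjusted permutation p = 0.0161), but its rho was 0.54 (adjusted permutation p = 0.0838), and r without mice 4 and 24 was 0.52. Nr1d2 had r = 0.52 (adjusted permutation p = 0.108) and rho = 0.69 (adjusted permutation p = 0.0228). Per1, Per2 and Tef lay between 0.47 and 0.49 and Cry1 at -0.26, none of them past the threshold by r or rho. The activators were at -0.42 for Arntl (adjusted permutation p = 0.167) and -0.04 for Clock. Of the 45 pairs of members, Arntl and Nr1d1 had the lowest r over mice, -0.61, and Nr1d1 and Dbp the highest.

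**Figure D5:**
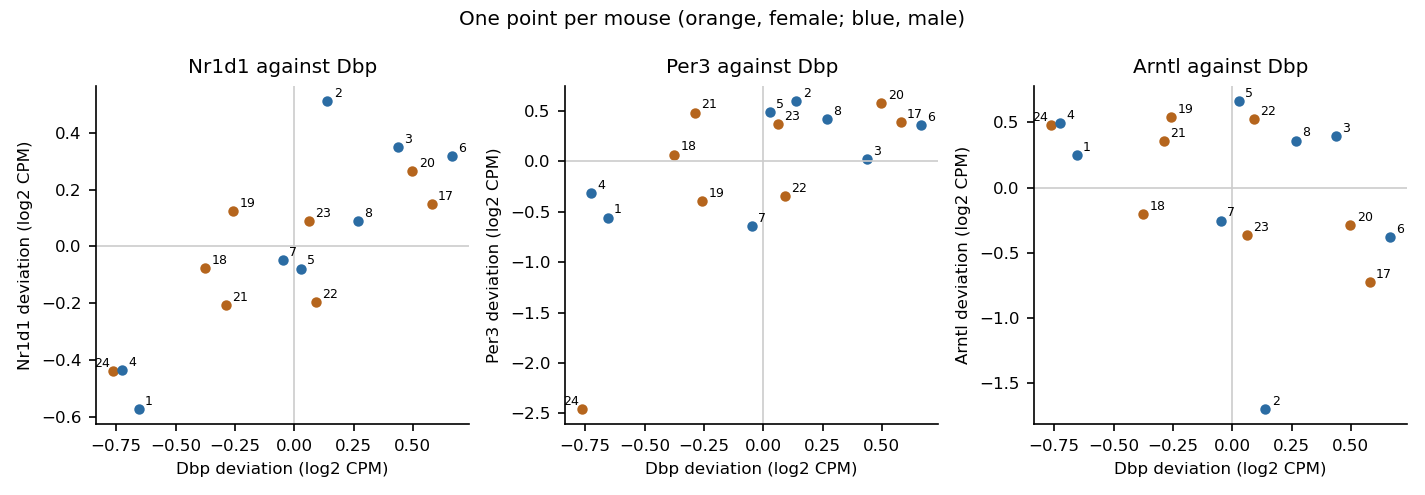
Mean deviation of Nr1d1, Per3 and Arntl against that of Dbp, in log2 CPM, with 1 point per mouse (orange, female; blue, male; numbers, mice). Nr1d1 rises with Dbp in both sexes (r = 0.83), the value of Per3 (r = 0.64) is 0.52 without mice 4 and 24, and Arntl runs the other way (r = -0.42, not past the threshold).

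Over all 57 samples, with group means removed, Nr1d1 was also the gene most like Dbp (r = 0.71) among 3078 well measured genes. Well measured here means an average level of 5 or higher in log2 CPM. Per1 and Nr1d2 were the only other members in that set, at 0.29 and 0.28. Arntl, Clock, Per2, Per3, Cry1 and Tef lay under this cutoff and were not ranked. The 5 most alike outside the lists were Oplah (0.46), Wbp1l (0.46), Bnip3 (0.44), Cyp2d22 (0.41) and Polr2a (0.40). The 5 least alike were Maged2 (-0.57), Spon2 (-0.47), Diablo (-0.46), Yipf3 (-0.45) and Ctsh (-0.43). These values are a description, over samples that share mice.

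A list of 23 other genes of the clock pathway was counted beside the members. Between the sexes, 2 of 18 tested were called in pgWAT, where 10.8% of all genes were, and both were higher in males, namely Usp2 (0.89 ± 0.25, adjusted p = 0.0158) and Rora (0.39 ± 0.13, adjusted p = 0.0490), which encodes a receptor that activates Arntl. With the mouse as a random effect 3 of 18 were called, Arntl2 in addition, in a fit whose share of all genes is not given here. In iWAT 0 of 19 were called, against 4.38% of genes (3 at an unadjusted p under 0.05, against 17.0%). For the sex effect between depots 1 of 20 was called, against 2.18% of genes, namely Bhlhe40, which encodes a repressor of E-box genes (-1.29 ± 0.35, adjusted p = 0.0317). The call of Rora was lost without any 1 of 13 mice (0.34 to 0.42), all but mice 7 and 18 of the 15, and that of Bhlhe40 without mouse 1, 2, 6, 20, 21, 22, 23 or 24 (-1.28 to -1.10).

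Between the gates of iWAT 5 of 19 pathway genes were called, against 15.4% of all genes. Higher in DPP4+ cells were Rorb, a further activating receptor gene (2.36 ± 0.49, adjusted p = 0.000443), the repressor gene Cry2 (0.77 ± 0.19, adjusted p = 0.00312), Nampt, which encodes an enzyme of NAD synthesis (0.71 ± 0.21, adjusted p = 0.0159), and Csnk1d, which encodes a kinase of the PER proteins (0.48 ± 0.15, adjusted p = 0.0208). Lower was Npas2, a relative of Clock (-1.18 ± 0.39, adjusted p = 0.0323). The call of Npas2 was lost without mouse 1, 2, 3, 4, 20, 23 or 24 (-1.19 to -0.98), and that of Csnk1d without mouse 3 or 7 (0.41 and 0.43). With the replicate block 4 of 22 were called, namely Rorb, Cry2, Nampt and Usp2 (1.38 ± 0.38, adjusted p = 0.0134). The share of all genes called in that fit is not given here. In pgWAT 2 of 18 were called, a share below the 15.1% of all genes, namely Usp2 (1.18 ± 0.25, adjusted p = 0.000769) and Cry2 (0.41 ± 0.11, adjusted p = 0.00888), so Cry2 was higher in DPP4+ cells of both depots.

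Between the depots, Usp2 (1.45 ± 0.29, adjusted p = 0.00103) and Bhlhe41, a relative of Bhlhe40 (1.22 ± 0.28, adjusted p = 0.0046), were higher in iWAT of females, 2 of 19 where 6.12% of genes were called. In males Rorb was called, 1 of 19 where 14.0% of genes were (3.07 ± 0.76, adjusted p = 0.00382), and Bhlhe40 in addition with the replicate block. In the test of mouse within group 1 of 22 was called, Bhlhe41 (F = 3.55, adjusted p = 0.0448), against 1.18% of genes, and 0 of 21 across depots (1 unadjusted), against 0.186%. The Bhlhe41 call was lost without mouse 1, 3, 5, 6, 17, 18, 19, 20, 21 or 23 (F between 2.34 and 3.67). The sex by gate test called Usp2 alone in iWAT, 1 of 20 against 2.8% of genes, and 0 of 19 in pgWAT (4 unadjusted) against 1.13%.

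Per1 is also known as a gene that glucocorticoids and stress induce quickly, so 2 further lists were set beside it. Per1 measured nearly the same in the sexes, with 0.02 ± 0.15 in pgWAT and -0.01 ± 0.16 in iWAT. Of 8 genes that steroid hormones are known to induce, 5 were higher in males in pgWAT and 4 in iWAT, where 10.8% and 4.38% of all genes were called in either direction, with Fkbp5, a chaperone of the glucocorticoid receptor, at 1.83 ± 0.27 (adjusted p = 6.65e-06) and 1.63 ± 0.28 (adjusted p = 0.000148). Fkbp5 already belonged to the study's core set of sexually dimorphic genes, drawn in part from these samples, so its calls are not independent of that set. In the mouse test 5 of these 8 were called, against 1.18% of genes, while Per1 was not (F = 2.89, adjusted p = 0.144). Of 9 immediate early genes, which respond to dissociation and stress, 1 (Dusp1) was higher in males in each depot, and 4 of 9 in pgWAT were lower in DPP4+ cells (Fos, Fosb, Jun and Ier2), where 15.1% of genes were called between the gates. Their summed level lay between 6411 and 18801 CPM in every group.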

How the data were processed

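RNA-seq counts per gene were taken from the table of 143 libraries that the authors deposited. It holds whole raw counts, and the submitters' processing notes name bcl2fastq, STAR, Salmon and the build mm10 without versions. Of 53468 genes, 53431 matched GENCODE M21 (GRCm38), and 92 spike-in rows (0.00461% of counts) were left out. Libraries held 100026 to 2330623 counts (median 848774), and no pair of libraries from the same sample was identical or within sampling noise (119 pairs). A ribosomal-RNA-like locus took 25.1 to 47.0% of counts. Libraries were summed per mouse, depot and gate into 57 samples, and CPM was computed from all gene counts of a sample.

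Tests used edgeR 4.0.16 (R 4.3.3; TMM scaling, default filter on low counts, quasi-likelihood F-test) over all genes, called at a Benjamini-Hochberg adjusted p under 0.05. Sex was tested with gate as a term, gate with sex, and depot within each sex with gate. Mouse was tested within group, and sex by depot and sex by gate as interactions. The sex by gate tests were added after the data had been seen. Samples of the same mouse number come from the same animal, so the mouse pairs them, and fits with the mouse as a replicate block (edgeR, or limma 3.58.1 with the mouse as a random effect) were made beside the main ones. DESeq2 1.42.0 was an alternative. Deviations are log2 CPM (prior count 2) minus the group mean, averaged over the samples of a mouse, and their correlations used 100000 permutations (scipy 1.17.1). The fitting code was tested on simulated data.

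The genes named are the 10 members, the other pathway genes that were called (23 listed), lists of 8 steroid-induced and 9 immediate early genes, markers of other cell types, and the 5 genes most and least like Dbp. Sphk2 and Thra were added because they overlap members. Members and lists were chosen with earlier results of these data known. The total counts set the precision, since a gene with few counts in a sample, such as Cry1, varies by counting alone.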

Additional observations from a re-analysis of the deposited data

Results flagged for a closer look

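Of the 80 combinations of member and group, 8 held a sample far from the others by Dixon's test, which flags about 1 in 20 by chance. All 8 lay in iWAT. Female mouse 22 gave 3 of them in the DPP4- gate: the highest Per2 (117 CPM), the highest Tef (67.8 CPM) and the lowest Nr1d2 (5.50 CPM). That sample had the highest luminal marker sum (15296 CPM), and the part of these markers in its values was not tested. Male mouse 6 gave the highest Nr1d2 in the DPP4- gate (70.6 CPM) and the highest Per2 in the DPP4+ gate (28.0 CPM). Female mouse 20 gave the highest Nr1d1 (381 CPM) and the highest Dbp (49.6 CPM) in the DPP4+ gate, and female mouse 19 the highest Arntl there (24.9 CPM).

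The sex effect of Dbp differed between the depots, at -1.62 on the log2 scale for iWAT minus pgWAT, and between the gates of iWAT, at 2.50 for DPP4+ minus DPP4-, by the tests of these differences themselves. Both tests use the same low values of male iWAT DPP4- cells.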

How the results depend on the processing

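Counts are of the 10 members called. The share of all genes called can differ between settings and is given here for some of them only. A changed count alone is therefore no result about the members. Without the filter on low counts, 2 were called between the sexes in pgWAT, 2 between the gates of iWAT, 2 in the mouse test and 1 across depots. DESeq2 called 2 and 2 in the first pair. With only the deepest library of each sample, 0 were called between the sexes in either depot, for sex by depot, for the gates of iWAT, for the depots in females, in the mouse test and for sex by gate in iWAT. Thinning to 1 depth gave 0 for sex in iWAT, sex by depot and the gates of iWAT, and leaving out libraries under 250000 counts gave 0 for the latter. With gates summed per mouse, 0 were called between the sexes in either depot and between the depots of females. Scaling by library totals called 1 between the depots of males. DPP4- samples alone gave 0 for sex in pgWAT (9.33% of all genes called, 10.8% in the main fit) and for the depots of females. DPP4+ samples alone gave 0 for sex in iWAT (8.27% of all genes called, 4.38% in the main fit). They gave 0 for sex by depot and 2 for the depots of females. Males alone gave 2 for the gates of iWAT (14.2% of all genes called, 15.4% in the main fit). In the mouse test iWAT alone and females alone gave 0 (3.0% and 0.39% of all genes called, 1.18% in the main fit). The relations to Dbp past the threshold were 1 in iWAT and 0 in females. The limma fit with the mouse as a replicate block gave 0 for sex in iWAT, and the block exchanged Per2 for Per3 between the gates of iWAT. It changed no other member's call. The cause of these changes was not tested.

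Leaving out each mouse gave 0 to 1 calls for the depots in females, sex by depot and sex in iWAT, 0 to 2 for the gates of iWAT, and 1 to 2 for the mouse test and sex in pgWAT. For single genes, 85 of 400 such omissions and 75 of 260 other settings ended a call, and none turned a called direction. These totals include results not called in the main fit, which could not lose a call, and 6 omissions and 8 other settings gained one. Leaving the ribosomal-RNA-like locus out of the total raised the mean Nr1d1 level from 297 to 467 CPM. DESeq2 was not run for the mouse tests. Low counts limit Cry1 (902 in all) and Dbp in male iWAT DPP4- cells (94). The labels tie samples to mice, but the main sex, gate and depot fits hold no term for the mouse. Their p-values thus measure the spread between samples, some of which share an animal, and not the spread between animals alone.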

Other observations

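Rorb, the gene of an activating receptor of the clock pathway, was chosen for a closer look after its values were seen. In iWAT DPP4+ cells it measured 8.27, 17.1 and 22.2 CPM at the lowest, median and highest in females and 17.5, 24.1 and 30.7 in males. In pgWAT DPP4+ cells females measured 1.69 to 13.0 CPM and males 0 to 3.74 CPM, with 3 of 7 male samples at 0. In DPP4- cells of either depot the medians were 0.40 to 1.90 CPM. No test of the sexes within these gates is given here for this gene.

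Bhlhe40 and Bhlhe41, the genes of related repressors of E-box genes, were highest in female iWAT DPP4- cells by their medians. Bhlhe40 measured 53.6, 110 and 291 CPM there and 20.2, 36.8 and 59.8 CPM in the male cells, which overlapped slightly. Bhlhe41 measured 16.6, 36.8 and 134 CPM against 4.71, 17.5 and 33.0. These female samples also held the luminal markers, whose part in the values was not tested.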
